A study of Mus musculus with 12 samples.

Results

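The comparison described here is that of mammospheres from young mice lacking p66Shc (KO) with mammospheres from young wild-type (WT) mice, both 2 months old. It takes 6 of the 12 libraries of the series, 3 KO and 3 WT, and the 13961 of 23406 deposited genes whose mean over all 12 libraries was at least 0.5 CPM (read counts scaled to library size). Mammospheres are spheres that mammary cells form in suspension culture. These were at passage 2 and came from C57BL/6J mice, WT or p66Shc-deficient in every cell, with no other allele or agent named in the labels. The remaining 6 libraries came from 12-month-old KO and WT mice and serve here for a comparison of the genotype effect between ages. The design text speaks of 3 young and 3 aged mice, but the labels do not tie a library to an animal, so p-values measure the spread between these libraries.

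Shc1 encodes 3 adaptor proteins that link receptor tyrosine kinases to Ras, and p66Shc is the longest of them. Unlike the shorter forms, p66Shc is known for a role in mitochondrial production of hydrogen peroxide and in stress signalling downstream of p53. It also takes part in insulin and growth factor signalling. The series' title links p66Shc, p53 and Insc to asymmetric divisions of aged mammary stem cells, and the young mice give the genotype effect before ageing.

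The 6 libraries held 35421697 to 50902201 reads in genes, and the 4 Y-linked marker genes had no read in them. The deposited columns do not share 1 scale. The scaling factors of the KO columns were reproduced by a run on the KO libraries of both ages alone. Those of the 2-month WT columns were reproduced by no grouping tried, with a closest difference of 0.02 log2. A common rescaling of all 12 libraries with the trimmed mean of M-values (TMM) raised KO relative to WT by 0.08 on the log2 scale. A gene is therefore said to have risen or fallen only where the limma test passed an adjusted p of 0.05 in the same direction on the deposited and on the common scale. WT replicate 1 lay furthest from the other WT libraries. It correlated with WT replicates 2 and 3 at 0.991 and 0.994 across genes, while those correlated at 0.997 with each other, and its deviations from the WT mean followed GC content (Spearman -0.68). Those of WT replicate 2 did so in the opposite direction (0.68), and the SD of the deviations was 0.18 log2 in replicate 1, 0.15 in replicate 2 and 0.10 in replicate 3. Results that rest on it are given with and without it.

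In the libraries labelled as mammospheres, epithelial and stromal transcripts were both found. The luminal keratin Krt18 was at 93.2 ± 8.64 CPM in WT (SD, n = 3) and the basal keratin Krt14 at 13.4 ± 3.5. The basal keratin Krt5 was at 0.767 ± 0.257 CPM in WT. Decorin (Dcn), a proteoglycan of fibroblasts, was at 3341 ± 102 CPM. In such bulk libraries, fewer cells of a type and less RNA per cell cannot be told apart.

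Lower levels outnumbered higher ones in KO. Of the 13961 genes, 259 rose (1.86%) and 1032 fell (7.39%), 1291 in all (9.25%). The libraries of the 2 groups did not overlap on either scale in 2809 genes (20.1%). Genes named below by rule were taken from calls without such overlap. Their lack of overlap was thus set in advance and adds no support. edgeR on the recovered reads called 1414 genes (10.1%). The differences were mostly small. The median change was 0.49 log2 among the genes that rose and -0.60 among those that fell, and 14 rose and 178 fell by more than 1 log2. On the deposited scale alone 259 were higher and 1986 (14.2%) were lower, against 426 (3.05%) and 1032 (7.38%) on the common scale. The deposited-scale count of lower genes was 1233 without KO replicate 1 and 1297 without KO replicate 3. The share of higher genes among those called was thus 11.5% on the deposited scale and 29.2% on the common one. Without WT replicate 1, on the common scale, 248 of the 259 and 926 of the 1032 genes were still called. Leaving it out made the relation of the fold change to GC content stronger (Spearman -0.46, against -0.22 with all libraries). After a loess correction for GC content, 251 of the 259 and 943 of the 1032 genes were still called. The median over all genes tested was -0.09 log2 on the deposited and -0.0045 on the common scale. For many of the gene lists below the median is given on both. Counts of list members below are read beside the 1.86% of all genes that rose and the 7.39% that fell.

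**Figure D1:**
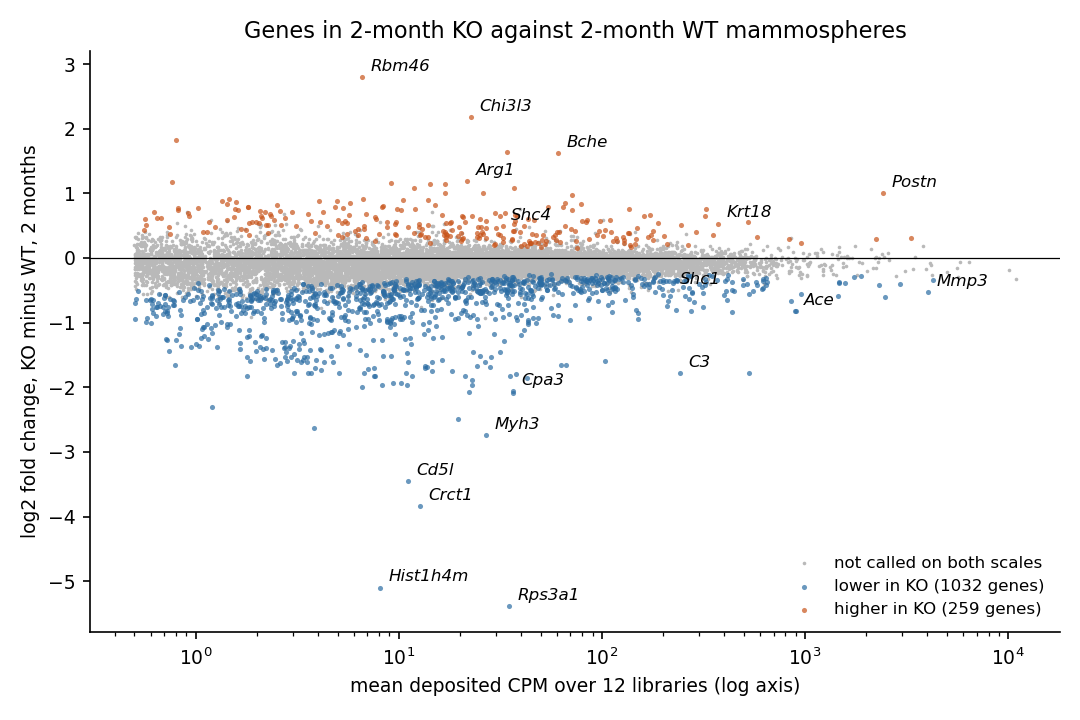
Log2 fold change between KO and WT at 2 months (vertical axis, deposited scale) against the mean deposited CPM over 12 libraries (horizontal log axis), 1 point per gene. The 1032 genes lower in KO reach further from 0 than the 259 higher ones, and Rps3a1, Hist1h4m, Crct1 and Cd5l lie lowest.

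The targeted gene was lower but present in KO. Shc1 (chromosome 3, 89418550 to 89430029, mm10) was at 266, 311 and 310 CPM in the 3 WT libraries and at 208, 209 and 208 CPM in the 3 KO libraries. All KO libraries lay below all WT libraries, with a log2 fold change of -0.50 ± 0.06 (SE, adjusted p = 0.000133). Each gene has 1 value for all its isoforms, so p66Shc and the shorter Shc1 forms cannot be read apart and the genotype labels are checked in part.

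Of the other Shc adaptors, Shc4 rose. It had 29.4, 32.7 and 28.6 CPM in WT and 42.2, 45.8 and 40.8 in KO, without overlap (0.50 ± 0.10, adjusted p = 0.00417). Shc2, which is best known from neurons, had a log2 difference of -0.25 (adjusted p = 0.171) and Shc3, another neuronal form, one of -0.30 (adjusted p = 0.165). Without WT replicate 1 the difference for Shc2 passed, at -0.42 on the deposited scale (adjusted p = 0.00273) and -0.33 on the common one (adjusted p = 0.0138).

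Among 22 measured genes of p66Shc signalling, 1 rose (4.55%, against 1.86% of all genes) and 3 fell (13.6%, against 7.39%), with a median of -0.14 log2 on the deposited scale and -0.05 on the common one. Besides Shc1, the insulin-like growth factor receptor Igf1r fell from 51.9 ± 1.96 to 40.3 ± 2.11 CPM (-0.36, adjusted p = 0.000387). Prkcb, whose kinase phosphorylates p66Shc under oxidative stress, fell from 437 ± 13.5 to 320 ± 15.6 CPM (-0.45, adjusted p = 0.00127). Thioredoxin (Txn1), a redox protein, rose from 280 ± 9.91 to 322 ± 13.8 CPM (0.20, adjusted p = 0.0303), a call lost without any 1 of the 3 WT libraries or KO replicate 1 or 3 (adjusted p = 0.0542 to 0.128). The adaptor Grb2 and the exchange factors Sos1 and Sos2, which connect Shc to Ras, differed by -0.19, 0.03 and -0.05 log2 and did not pass. Without KO replicate 2 Grb2 passed on the deposited scale (-0.25, adjusted p = 0.0275). Cycs, Rac1 and Ppp2ca, further partners of p66Shc, differed by -0.06, -0.13 and -0.07 log2 and did not pass either. Egfr was at 801 ± 24.3 CPM in WT and 678 ± 24.5 in KO, which passed on the deposited scale (adjusted p = 0.00614) and not on the common one (adjusted p = 0.071).

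Trp53 and Insc, which the title names with p66Shc, did not pass on both scales. Trp53, which encodes p53, had 16.5, 18.2 and 17.8 CPM in WT and 13.4, 15.6 and 14 in KO. Its difference of -0.28 log2 passed on the deposited scale (adjusted p = 0.0249) but was -0.20 on the common scale (adjusted p = 0.146). On the deposited scale it was lost without WT replicate 2 or 3 or KO replicate 1 or 3 (adjusted p = 0.0814 to 0.114). Insc, the spindle adaptor Inscuteable, had a mean of 0.495 CPM over the series, just under the filter, with 23, 26 and 31 reads in WT and 24, 41 and 31 in KO. Without a filter its difference was 0.23 log2 (adjusted p = 0.239). The genes nearest to the filter were Aard inside it, at just over 0.5 CPM, and Dync1i1 outside it, at 0.499.

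Of 27 measured genes of asymmetric division and spindle orientation, 0 rose or fell on both scales. An unadjusted p under 0.05 in limma on the deposited scale was found in 6, as in 28.5% of all genes tested. By edgeR 1 was called and by DESeq2 0. Numb, which antagonises Notch and is partitioned at asymmetric divisions, differed by -0.11 log2 (adjusted p = 0.22). Gpsm2, which encodes the spindle protein LGN, differed by -0.06 (adjusted p = 0.69). Of 31 measured p53 target genes, Pmaip1, an inducer of apoptosis, rose (0.28, adjusted p = 0.0419, or 0.0736 to 0.151 without any 1 library other than WT replicate 1) and Sesn1, a stress-response gene, fell (-0.35, adjusted p = 0.00127). Each was 3.23% of the list, where 1.86% of all genes rose and 7.39% fell. On the common scale alone 5 of the 31 were higher and 1 lower, where 3.05% and 7.38% of all genes were. By edgeR 6 were called, against 10.1% of all genes, and by DESeq2 6. The count for this list thus depends on the scale and the test. Cdkn1a and Mdm2, 2 classical targets, differed by -0.16 and -0.22 log2 with adjusted p = 0.125 and 0.176. Without KO replicate 2, Mdm2 passed on the deposited scale (-0.34, adjusted p = 0.0202).

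No gene of the 3 cell cycle lists was called on both scales. Of 40 G2/M genes 0 were called on both scales, with 0 at an unadjusted p under 0.05 in limma, 0 by edgeR and 0 by DESeq2. Of 38 G1/S genes 0 were called on both scales, while 17 had an unadjusted p under 0.05, 0 were called by edgeR and 1 by DESeq2. On the deposited scale alone 6 of them were lower, and the median was -0.16 log2 there and -0.08 on the common scale. Among all genes tested 28.5% had an unadjusted p under 0.05 in limma on the deposited scale, a share that the G1/S list exceeded. The proliferation marker Mki67 had 448, 364 and 390 CPM in WT and 412, 382 and 346 in KO, with overlap (-0.08, adjusted p = 0.744). Myc, a growth regulator, was at 11.9 ± 1.88 and 11.7 ± 0.562 CPM. Of 16 D cyclins and CDK inhibitors 0 were called on both scales, with 5 at an unadjusted p under 0.05 and 0 by edgeR or DESeq2.

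Genes of skeletal muscle fell together. The list of 23 held 20 measured genes, and all 20 fell, with a median of -1.69 log2 on the deposited and -1.60 on the common scale, against 7.39% of all genes. Their range ran from -2.73 to -0.76. The 250 bases before the RefSeq starts (GRCm38.p6) of 3 of the muscle and mast cell genes are shown because these groups fell furthest. Capitals mark CAGCTG, a sequence bound by myogenic E-box factors, CArG boxes, MEF2 sites and AGATAA, a form of the GATA motif, each searched on both strands. Acta1 (skeletal muscle actin) is on chromosome 8 at chr8:123894776-123895025, minus strand, Myh1 (a fast myosin heavy chain) at chr11:67199852-67200101, plus strand, and Cpa3 (mast cell carboxypeptidase) at chr3:20242182-20242431, minus strand.
Acta1: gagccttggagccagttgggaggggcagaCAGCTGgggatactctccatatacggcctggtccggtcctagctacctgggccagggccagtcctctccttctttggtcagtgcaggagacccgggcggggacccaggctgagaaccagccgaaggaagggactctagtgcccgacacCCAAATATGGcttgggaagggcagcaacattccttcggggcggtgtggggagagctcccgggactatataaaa
Myh1: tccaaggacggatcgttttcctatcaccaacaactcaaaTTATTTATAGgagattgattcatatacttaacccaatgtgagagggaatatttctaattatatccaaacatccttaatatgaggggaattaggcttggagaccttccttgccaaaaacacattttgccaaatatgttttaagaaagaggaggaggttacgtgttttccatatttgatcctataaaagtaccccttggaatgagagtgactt
Cpa3: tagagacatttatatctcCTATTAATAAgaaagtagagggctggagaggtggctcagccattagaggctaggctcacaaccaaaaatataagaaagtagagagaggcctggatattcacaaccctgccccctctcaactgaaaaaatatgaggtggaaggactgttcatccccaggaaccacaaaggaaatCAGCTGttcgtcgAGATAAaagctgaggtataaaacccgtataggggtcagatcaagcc
In the Acta1 window the capitals are CAGCTG and then a CArG box, in Myh1 a MEF2 site, and in Cpa3 a MEF2 site, CAGCTG and then AGATAA.

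Of the 20 measured muscle genes, 18 matched a RefSeq window, and 8 of them (44.4%) held CAGCTG, as did 14.8% of the 10248 genes tested that matched a window of the same length. A MEF2 site was found in 4 (22.2%) against 2.09%, and a CArG box in 2 (11.1%) against 1.44%. These matches are a description of the sequence, not evidence of binding. The motifs were chosen with the results known.

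The embryonic myosin Myh3 was at 60.4, 70.2 and 55.2 CPM in WT and at 8.71, 9.39 and 8.43 in KO. All KO libraries were below all WT libraries (-2.73 ± 0.20, adjusted p = 2.41e-06). Myh1 fell from 40, 46.2 and 37.3 CPM to 7.11, 6.87 and 6.58 (-2.50 ± 0.16, adjusted p = 6.85e-07). The perinatal myosin Myh8 fell from 151 ± 17.5 to 47.4 ± 2.26 CPM and the fast myosin Myh4 from 9.29 ± 0.75 to 3.14 ± 0.0413. Acta1 had 61.2, 126 and 92.7 CPM in WT and 23.6, 24.3 and 24.9 in KO, so its WT libraries spread widely while the groups stayed apart. The cardiac actin Actc1 (-1.97), outside the list, and the Z-disc gene Actn2 (-2.0), on it, were among the 15 largest falls. The summed level of the list was 1392 to 1662 CPM in the WT libraries and 422 to 466 in the KO libraries. Whether the cultures held different numbers of muscle cells was not tested.

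**Figure D2:**
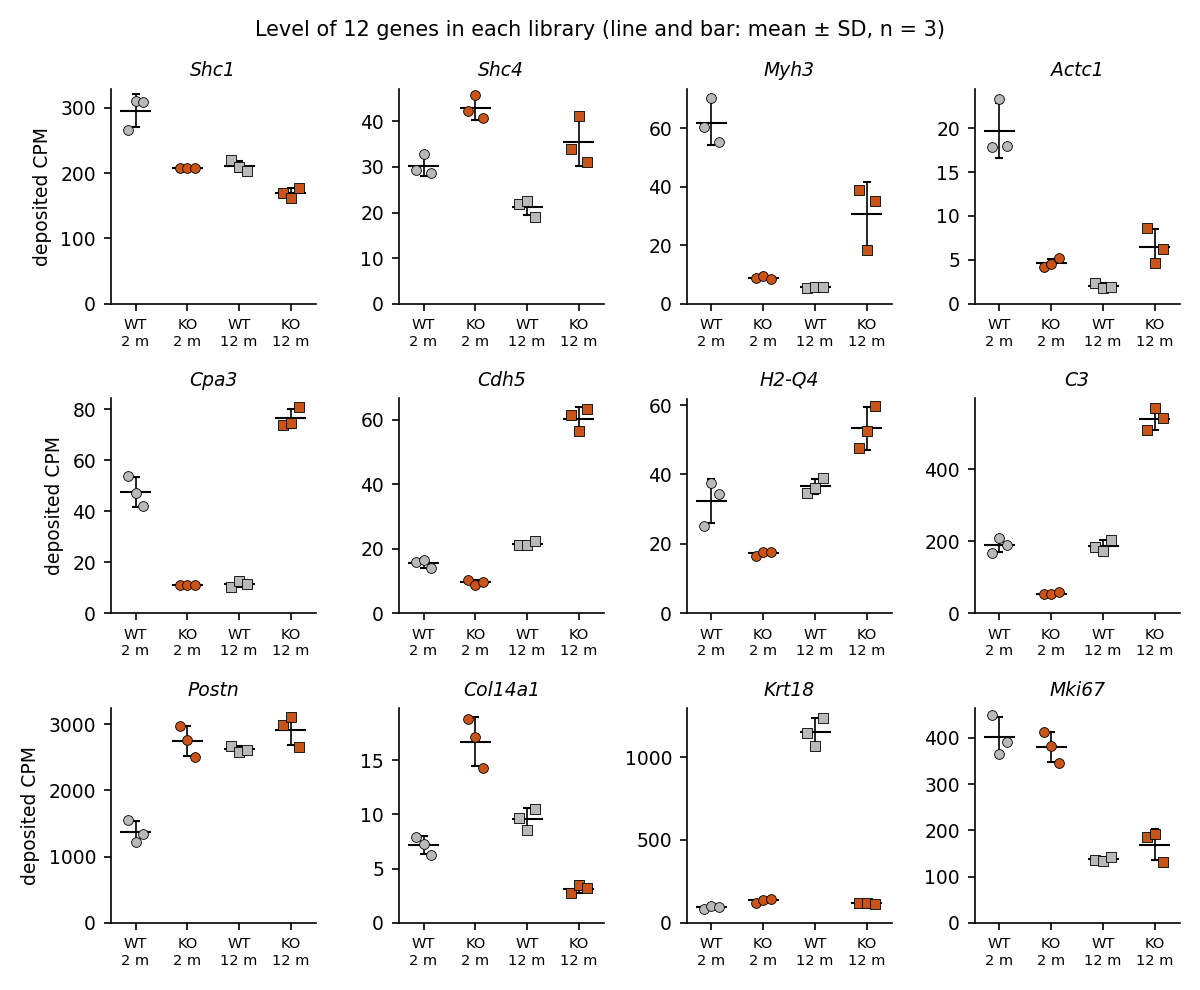
Deposited CPM (vertical axes, from 0) of 12 genes in each of the 12 libraries by genotype and age, WT in grey and KO in orange, circles at 2 months and squares at 12. Lines and bars give mean ± SD (n = 3), and at 2 months Myh3, Actc1, Cpa3, Cdh5, H2-Q4 and C3 are lower in every KO library than in any WT library, while Mki67 overlaps.

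Genes of mast cells were lower too. Of 11 measured genes 10 fell, with a median of -1.82 log2 on the deposited and -1.74 on the common scale. The protease Mcpt4 went from 4.98, 4.9 and 4.06 CPM in WT to 0.243, 0.345 and 0.411 in KO (-2.63 ± 0.13, adjusted p = 7.22e-08). Cpa3 went from 53.9, 47.2 and 42.1 to 11, 10.9 and 11.1 CPM (-2.06 ± 0.09, adjusted p = 1.93e-08), and the chymase Cma1 from 30.9 ± 2.17 to 6.93 ± 0.17. Fcer1a, the binding chain of the IgE receptor, fell by 1.97 on the log2 scale and the tryptase Tpsb2 by 1.97. The groups did not overlap for any of these, as the rule for naming genes required. Kit, the stem cell factor receptor that also marks luminal progenitors, fell from 11.1 ± 0.684 to 4.6 ± 0.441 CPM. The mast cell list summed to 158 to 177 CPM in WT and 41.5 to 44.4 in KO. Of its 9 genes with a RefSeq window, 3 (33.3%) held AGATAA, against 7.12% of genes tested.

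Endothelial genes were the third marker group that was lower. Of 12 measured genes 9 fell (median -0.70 deposited, -0.61 common). The junction gene Cdh5 (VE-cadherin) had 16, 16.5 and 13.9 CPM in WT and 10.3, 8.87 and 9.59 in KO (-0.66 ± 0.08, adjusted p = 0.000111). Pecam1 fell from 36 ± 2.3 to 18.7 ± 1.41 CPM, Emcn from 15.6 ± 0.418 to 8.69 ± 0.986, and the transcription factor Erg from 2.19 ± 0.251 to 1.1 ± 0.015. Of 7 pericyte genes Cspg4 rose and 2 fell, and the call of Cspg4 was lost without WT replicate 1 or 3 or any 1 KO library (adjusted p = 0.0522 to 0.105), while on the common scale without WT replicate 1 it was kept. Of 11 macrophage genes Arg1 rose and Cd163 fell. The scavenger receptor Cd163 was no longer called without WT replicate 2 or any 1 KO library (adjusted p = 0.0562 to 0.0715), nor without WT replicate 1 on the common scale (adjusted p = 0.07). Of the lymphocyte list only 2 of 10 genes passed the filter and neither was called, and no erythrocyte gene passed it.

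The luminal keratins Krt18, Krt8 and Krt7 rose. Of 12 measured luminal epithelial genes 5 rose and 0 fell, a share of 41.7% against 1.86% over all genes, with a median of 0.27 log2 on the deposited and 0.36 on the common scale. The remaining 7 were not called, the keratin Krt19 among them, and the lowest change in the list was -0.24 log2. Krt18 had 84.2, 101 and 94.1 CPM in WT and 122, 138 and 145 in KO, without overlap (0.53 ± 0.08, adjusted p = 0.000523). Its partner Krt8 rose from 37.1, 54.1 and 55.2 to 68.7, 74.9 and 87.8 CPM (0.67 ± 0.14, adjusted p = 0.0045). WT replicate 1 was the lowest library in both genes. Without it, on the common scale, Krt8 differed by 0.57 (adjusted p = 0.00152) and Krt18 by 0.55 (adjusted p = 0.000431). Krt7, the tight junction gene Cldn4 and the adhesion gene Epcam rose by 0.31, 0.40 and 0.30 log2. Cldn4 was not called without KO replicate 2 or 3 (adjusted p = 0.0525 and 0.0857), nor Krt7 without KO replicate 3 (adjusted p = 0.0568), and the highest adjusted p of Epcam over 20 settings was 0.111.

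Of 9 measured luminal progenitor markers 1 rose, 4 fell and 4 were not called, with a median of -0.44 log2 on the deposited and -0.37 on the common scale. The highest change in the list was 0.39 log2. Kit, which is also on the mast cell list, was 1 of the 4 that fell. The milk proteins Ltf (lactoferrin), Lcn2 (lipocalin) and Trf (transferrin) fell, from 26.1 ± 3.33 to 14.2 ± 1.55, from 119 ± 12.1 to 66.2 ± 3.54 and from 121 ± 16.1 to 67.6 ± 4.48 CPM. Of 11 basal and myoepithelial genes 2 rose and 3 fell. Krt14 rose from 13.4 ± 3.5 to 21.4 ± 2.18 CPM (0.69, adjusted p = 0.00572), while the contractile genes Myh11 and Mylk fell by 0.96 and 0.82 on the log2 scale. Ly6a, which encodes Sca-1, a surface marker used in stem cell sorting, had 51.1, 50.7 and 51.6 CPM in WT and 17, 15.7 and 17.1 in KO (-1.59 ± 0.09, adjusted p = 1.54e-07). Prom1 (CD133) fell from 40.5 ± 2.07 to 29.3 ± 1.22 CPM. The 18 measured stem and progenitor surface markers held 2 that rose and 4 that fell.

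The abundant genes that rose included matrix genes. Periostin (Postn), a matricellular protein of stroma and wound healing, had 1546, 1228 and 1347 CPM in WT and 2967, 2769 and 2512 in KO (1.0 ± 0.09, adjusted p = 1.2e-05). Of 35 measured collagen genes 7 rose and 1 fell (20% and 2.86%), with a median of 0.14 log2 on the deposited and 0.23 on the common scale. Without WT replicate 1, on the common scale, the median was 0.11, with 7 genes higher and 1 lower. The summed level of the list overlapped, at 22042 to 28916 CPM in the WT libraries and 26121 to 27589 in the KO libraries. WT replicate 1 was the lowest. Col11a1 rose from 13.3 ± 0.544 to 27.1 ± 1.48 CPM, Col14a1 from 7.16 ± 0.823 to 16.7 ± 2.29 and Col15a1 from 133 ± 10.2 to 210 ± 19.6. Col25a1, a membrane collagen, fell from 1.77 ± 0.342 to 0.672 ± 0.115. The thrombospondin Thbs4 rose (0.56) and the stromal surface gene Thy1 rose (0.85), while Dcn and the matrix gene Dpt fell by 0.40 each. Without WT replicate 1, on the common scale, Dpt had an adjusted p of 0.0628. Of 12 fibroblast markers 2 rose and 2 fell.

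Matrix-degrading enzymes and their inhibitors moved in both directions. Stromelysin (Mmp3) had 4255, 3896 and 4088 CPM in WT and 2871, 2708 and 2875 in KO (-0.53 ± 0.06, adjusted p = 5.92e-05). The neutrophil-type collagenase Mmp8 rose from 8.51 ± 1.13 to 19.6 ± 3.74 CPM (1.15 ± 0.12, adjusted p = 4.31e-05). The inhibitors Timp2 and Timp3 fell from 519 ± 8.78 to 367 ± 17.8 and from 1206 ± 57.8 to 684 ± 51.1 CPM. In the list as a whole 3 of 39 rose and 5 fell (7.69% and 12.8%, against 1.86% and 7.39% of all genes). F2r, the thrombin receptor, and Tfpi2, a protease inhibitor of the matrix, rose from 294 ± 5.78 to 497 ± 20.3 and from 559 ± 56.7 to 818 ± 29.5 CPM. Nrep, an abundant transcript of repair tissue, had 510, 367 and 370 CPM in WT and 684, 680 and 567 in KO (0.64 ± 0.16, adjusted p = 0.0157), with WT replicate 1 the highest of the WT libraries. Its call was lost without WT replicate 2 or 3 or KO replicate 1 or 2 (adjusted p = 0.0558 to 0.067). The abundant falls were Ace (angiotensin-converting enzyme), from 726 ± 71.7 to 408 ± 11.6 CPM, the scavenger receptor Lrp1, from 1119 ± 176 to 743 ± 62, the selenium carrier Sepp1, from 2445 ± 71.9 to 1605 ± 28.6, and gelsolin (Gsn), from 1388 ± 294 to 925 ± 17.7. The call of Gsn was lost without WT replicate 2 or 3 (adjusted p = 0.0659 and 0.0614).

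Of all genes called, 20.1% were higher in KO, and the immune lists are read beside that share and the 7.39% of all genes that fell. Of 21 measured genes of MHC and antigen presentation 8 fell and 0 rose (38.1%, median -0.44 deposited, -0.38 common). H2-Q4, a class I gene, had 25.1, 37.5 and 34.5 CPM in WT and 16.5, 17.7 and 17.7 in KO (-0.87 ± 0.12, adjusted p = 0.000373). The immunoproteasome subunit Psmb8 fell from 36.6 ± 5.1 to 24.6 ± 2.05 CPM, the peptide-loading gene Tapbp from 94.2 ± 12.1 to 67.5 ± 1.32 and the class I transactivator Nlrc5 from 18 ± 0.622 to 12.4 ± 1.16. The class I genes are near-identical copies, and their reads could be split between them. Of 42 interferon response genes 7 fell and 0 rose (median -0.27 deposited, -0.18 common). Parp14 fell from 63.6 ± 4.81 to 44.8 ± 1.1 CPM and the guanylate-binding protein Gbp2 from 37.7 ± 2.1 to 28.3 ± 1.2.

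The complement component C3 fell. It had 169, 211 and 190 CPM in WT and 52.6, 53.3 and 58.2 in KO (-1.78 ± 0.08, adjusted p = 2.78e-08). The groups were far apart. Of 17 measured complement genes 7 fell and 2 rose, among them factor B (Cfb), from 16.8 ± 1.05 to 9.55 ± 0.86 CPM, C1ra, from 35 ± 2.1 to 23.8 ± 1.17, and the C1 inhibitor Serping1, from 92.3 ± 1.94 to 68 ± 5.89. Of 34 NF-kB and acute phase genes 9 fell and 1, Il6, rose. The neutrophil chemokine Cxcl5 fell from 4.14, 3.67 and 5.43 to 1.35, 0.95 and 1.31 CPM (-1.52 ± 0.17, adjusted p = 6.27e-05), Cxcl1 from 16.6 ± 2.05 to 9.01 ± 0.719 and the macrophage growth factor Csf1 from 562 ± 35.5 to 407 ± 18.3. Il6 was at 3.89 ± 0.582 CPM in WT and 6.88 ± 0.537 in KO (adjusted p = 0.0487, and up to 0.147 over 20 settings). Of 31 lysosomal genes 10 fell and 1 rose, with Grn (progranulin) from 234 ± 21.6 to 158 ± 17.9 CPM.

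Genes linked to p66Shc through insulin signalling and redox control were called in both directions. Of 34 measured genes of the FOXO and insulin axis 7 fell and 1 rose, with a median of -0.17 log2 deposited and -0.09 common. Insulin-like growth factor 2 (Igf2) had 39, 48.1 and 36.1 CPM in WT and 14.2, 14.3 and 15.2 in KO (-1.46 ± 0.17, adjusted p = 7.21e-05). The imprinted noncoding RNA H19, its neighbour on chromosome 7, fell from 375 ± 59.8 to 223 ± 16.4 CPM. The binding protein Igfbp3 fell from 131 ± 6.64 to 67.8 ± 2.29 CPM. The FOXO target Pdk4, which restrains pyruvate oxidation, fell from 13.1 ± 0.929 to 6.33 ± 0.521, and Trim63, a muscle ubiquitin ligase, from 7.1 ± 1.01 to 3.4 ± 0.438. Foxo3 differed by -0.31 log2 on the deposited scale (adjusted p = 0.0247) and was not called on the common scale (-0.23, adjusted p = 0.123), nor on the deposited scale without WT replicate 2 or 3 or KO replicate 1 or 3 (adjusted p = 0.0542 to 0.0953).

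Among 42 antioxidant genes and NRF2 targets 3 rose and 4 fell (7.14% and 9.52%, against 1.86% and 7.39% of all genes). The share that fell was thus near that of all genes. The list had a median of -0.09 log2 deposited and 0.0029 common. The glutathione transferase Gsta3 rose from 21.7, 20.7 and 19.9 to 30.6, 34.9 and 34.3 CPM (0.67 ± 0.08, adjusted p = 0.000154). Gpx3, a secreted glutathione peroxidase, fell from 139 ± 14.1 to 84.1 ± 0.944 and Sod3, the extracellular superoxide dismutase, from 1.33 ± 0.184 to 0.671 ± 0.129. Ferritin heavy chain (Fth1) fell from 1286 ± 19.9 to 983 ± 70.1 CPM. Of 73 respiratory chain subunit genes 0 were called on both scales, with 3 at an unadjusted p under 0.05 in limma (28.5% of all genes) and 0 by edgeR or DESeq2. Of 34 genes of glycolysis and hypoxia 7 fell and 0 rose, among them hexokinase Hk2 (-0.35), Pfkm (-0.54), Pdk1 (-0.50) and the mitophagy gene Bnip3 (-0.63). Of 24 sterol synthesis genes 0 were called on both scales, with 2 at an unadjusted p under 0.05, 1 by edgeR and 2 by DESeq2.

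**Figure D3:**
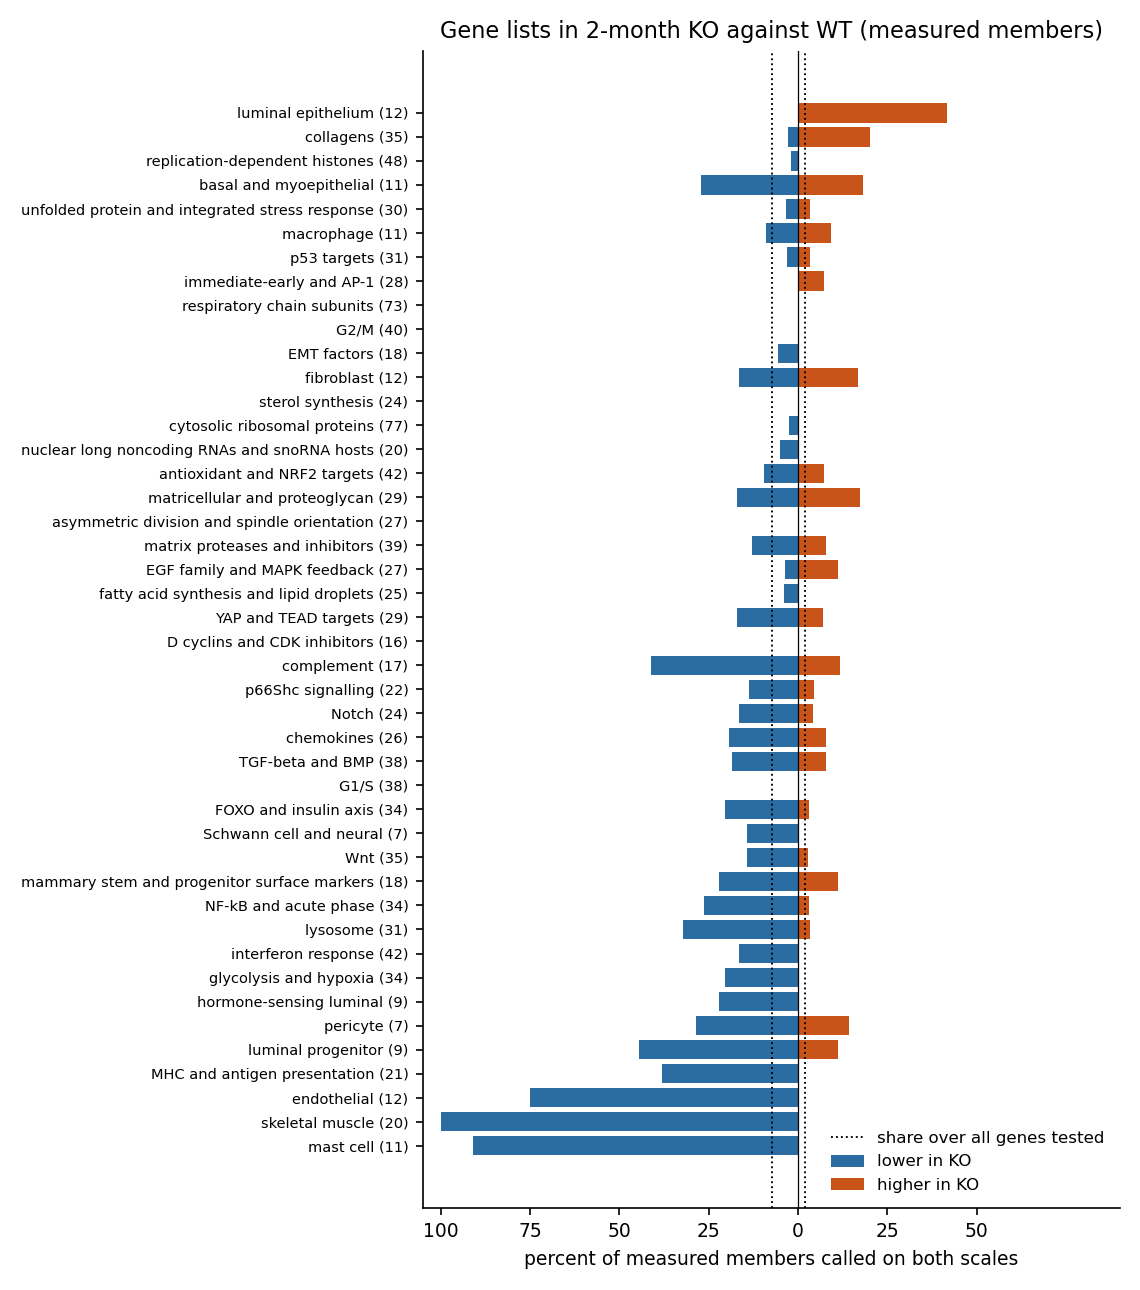
Percent of the measured members of each gene list (number in brackets, lists of at least 7) called on both scales as lower in KO (left, blue) or higher (right, orange). Dotted lines give the shares over all genes tested, 7.39% and 1.86%, and the skeletal muscle (20 of 20), mast cell (10 of 11) and endothelial (9 of 12) lists reach furthest to the left, the luminal epithelial list (5 of 12) to the right.

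Several of the largest differences lay on chromosome 3, which carries Shc1. Of the 15 largest falls, Rps3a1, Crct1, Cd5l, Lce3a, Ivl and Cpa3 lie there, and of the 15 largest rises Rbm46, Bche, Chi3l3, Unc5c, Postn and Col11a1. Of the 695 genes tested on chromosome 3, 14.7% were called, against 8.96% on the other chromosomes together. Single other chromosomes ranged from 7.36% (chromosome 19) to 12.6% (chromosome 1). Calls by more than 1 log2 numbered 24 on chromosome 3, 23 of 1046 genes on chromosome 7 and 21 of 828 on chromosome 1. Within 10 Mb of Shc1, 38 of 235 genes were called (16.2%), and 14 of them by more than 1 log2. Between 10 and 20 Mb it was 8.82% of 102 genes, between 20 and 60 Mb 17% of 276, and beyond 60 Mb 8.64% of 81. The share did not fall steadily with distance.

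Crct1, a gene of the epidermal cluster on chromosome 3, had 21.6, 20.5 and 24 CPM in WT and 1.14, 0.928 and 1.16 in KO (-3.84 ± 0.09, adjusted p = 6.7e-11). Its neighbour Ivl (involucrin, a cornified envelope protein) fell from 86.3, 87.8 and 85.7 to 18.4, 20.6 and 21.1 CPM (-2.09 ± 0.11). Cd5l, a secreted macrophage protein, fell from 18.4 ± 0.854 to 1.23 ± 0.119 CPM. Bche (butyrylcholinesterase) rose from 32.8, 29.4 and 28.5 to 94.4, 92.5 and 95.3 (1.62 ± 0.09, adjusted p = 1.59e-07), and Rbm46, a germ cell RNA-binding protein, from 1.77 ± 0.605 to 14.9 ± 0.27. The groups were far apart for all of these. The chitinase-like gene Chi3l3 rose from 4.77 ± 0.466 to 23.4 ± 1.77 CPM. Rps3a1 had 64.7, 47.8 and 135 CPM in WT and 1.11, 1.43 and 1.39 in KO. Its value is uncertain because ribosomal protein genes have near-identical copies, and its WT libraries ranged from 47.8 to 135 CPM.

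Hist1h4m, on chromosome 13, had 409, 1244 and 1205 reads in WT and 0, 5 and 3 in KO. Histone genes are near-identical copies, so it is uncertain too, and at so few reads its fitted change of -5.10 log2 depends on the pseudocount. It was the lone member of 48 measured replication-dependent histone genes that was called. The median of these was 0.06 on the deposited scale and -0.21 without WT replicate 1 on the common scale, so its direction rests on that library.

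A stretch about 52 to 53 Mb from Shc1 held genes called in both directions, which were named after their values were seen. Fgf2 (basic fibroblast growth factor) fell from 4.22, 3.71 and 4.75 CPM to 1.16, 1.3 and 0.874 (-1.56 ± 0.14, adjusted p = 1.52e-05). Its antisense neighbour Nudt6 fell from 6.08 ± 0.747 to 2.87 ± 0.33, the exosome subunit Exosc9 from 62.7 ± 0.75 to 32.1 ± 0.0166 and Mccc1, a leucine catabolic enzyme, from 17.8 ± 0.276 to 8.74 ± 0.822. Spry1, in the same stretch and a feedback inhibitor of growth factor signalling, rose (0.57 ± 0.08, adjusted p = 0.000224), as did Atp11b (0.40), 4932438A13Rik (0.35) and D3Ertd254e (0.19). Cetn4 (-0.75) and 1810062G17Rik (-0.65) fell. Reads of Fgf2 and its antisense partner cannot be told apart without a stated strand setting.

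**Figure D4:**
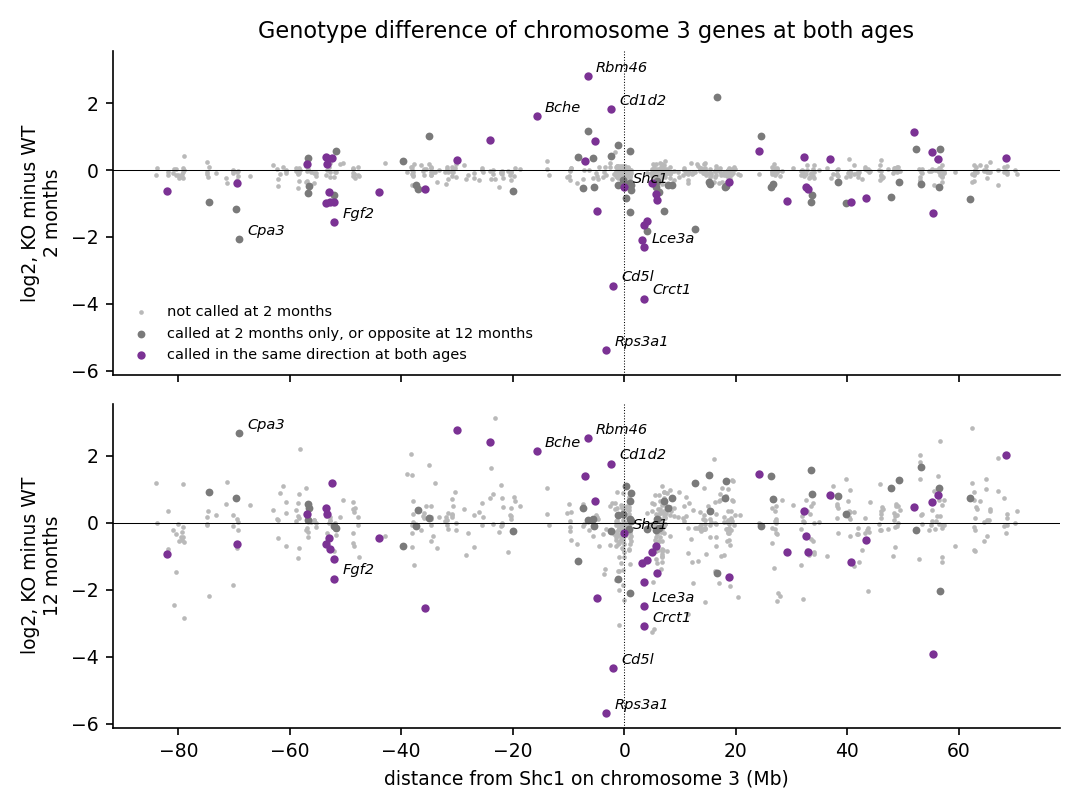
Log2 difference between KO and WT of each tested gene of chromosome 3 (vertical axes) at 2 months (top) and 12 months (bottom) against its distance from Shc1 in Mb. Purple points were called in the same direction at both ages, among them Rps3a1, Crct1, Cd5l, Bche, Rbm46 and Fgf2, while Cpa3 was lower at 2 months and higher at 12.

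The genotype effect was set beside that of the 12-month mammospheres, which shares no library with it. At 12 months 9594 genes (68.7%) were called, 4372 higher (31.3%) and 5222 lower (37.4%) in KO. Of the 1291 genes called at 2 months, 390 were called in the same direction at 12 months, 650 in the opposite direction and 251 were not called. Of the 259 that rose at 2 months 105 were higher and 104 lower at 12 months, and of the 1032 that fell 546 were higher and 285 lower. The change of the genotype effect between the ages was itself called in 1035 of the 1291 (80.2%). It was called in 54.3% of all genes, but the 2-month libraries that chose the 1291 also enter this test, so nothing is read from the higher share. On chromosome 3, 46 of the 102 genes called at 2 months (45.1%) were called in the same direction at 12 months. On the other chromosomes together it was 28.9%, with a range from 13.9% (chromosome X) to 40.6% (chromosome 4).

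The muscle and mast cell genes turned around. Of the 20 muscle genes, 16 were higher and 1 lower in KO at 12 months (median 1.04 log2 deposited), and the difference between the ages was called as higher at 12 months in 19. Myh3 was at 5.69 CPM in WT and 30.8 in KO at 12 months, and its effect differed between the ages by 5.01 log2 (adjusted p = 1.07e-08). Myh4, by contrast, fell at both ages (-1.42 and -1.48). Of 11 mast cell genes 9 were higher at 12 months, with Mcpt4 differing between the ages by 6.24 log2. Of 12 endothelial genes 10 were higher at 12 months. The 12 luminal epithelial genes were all lower in KO at 12 months, where Krt18 was at 1150 CPM in WT and 119 in KO.

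A set of genes had the same direction at both ages, by more than 1 log2 each, with no difference between the ages called in limma. It held Rps3a1, Hist1h4m (whose difference DESeq2 did call), Lce3a, Fgf2, Rbm46, S100a11 and Ankrd1, among others. Ankrd1, a muscle and YAP target gene, was at 9.5 ± 0.298 CPM in WT and 3 ± 0.61 in KO at 2 months (-1.53) and at 77.8 and 23.9 CPM at 12 months (-1.68). Shc1 differed by -0.50 and -0.31 log2 and Shc4 by 0.50 and 0.72, and neither difference between the ages was called (adjusted p = 0.0778 and 0.191).

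**Figure D5:**
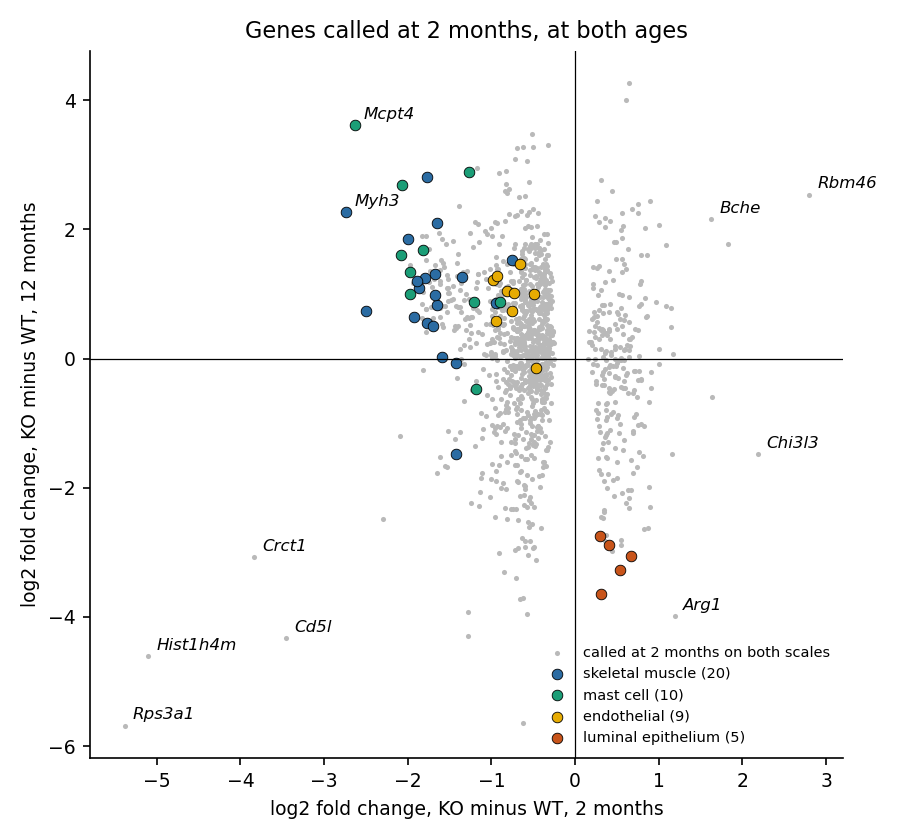
Log2 fold change between KO and WT at 12 months (vertical axis) against that at 2 months (horizontal axis) for the 1291 genes called at 2 months, with called marker genes coloured by list. Muscle, mast cell and endothelial genes lie mostly upper left, luminal epithelial genes lower right, and Rps3a1, Hist1h4m, Crct1 and Cd5l lower left.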

How the data were processed

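Total RNA of mouse mammospheres was sequenced in 12 libraries. The submitters' processing notes name the mm10 build, TopHat2 2.1.0, Bowtie2 2.2.4, SAMtools 0.1.18 and, for counting, HTSeq 0.6.1p1. Per the labels' protocols the kit was stranded, but whether counting used strand is not given in the sources used here. Signal values as deposited are CPM that the authors scaled with TMM in edgeR, per the file headers. Counts were recovered from the deposited values by dividing by the CPM of 1 read, and 100% came out within 0.1 of whole reads in every library.

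For all 12 libraries, log2(CPM + 0.5) of the 13961 genes averaging 0.5 CPM or more was fitted in limma 3.58.1 (R 4.3.3) with 4 groups and 8 residual degrees of freedom, and p-values were adjusted by Benjamini-Hochberg within each comparison. The pseudocount shrinks the fold changes of low genes, and precision is limited by 3 libraries a group and by depth. A call needed the same direction on the deposited scale and with TMM recomputed over all 12 libraries. Alternatives used edgeR 4.0.16 and DESeq2 1.42.0 on the recovered counts. The fit was tested on simulated data.

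Named genes are, among calls whose libraries do not overlap, the 15 largest rises and falls (at least 2 CPM), the 5 most abundant each way, up to 4 per list and a fixed set around Shc1. Fgf2, Nudt6, Exosc9, Mccc1, Atp11b, 4932438A13Rik, D3Ertd254e, Cetn4, 1810062G17Rik, S100a11, Acta1, Epcam, Il6 and Krt5 were added after their values were seen. The comparison, the 48 gene lists and the promoter motifs were chosen with earlier results of these data known. Promoter sequences are from RefSeq. Some genes that the naming rule picks are not reported here.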

Additional observations from a re-analysis of the deposited data

Results flagged for a closer look

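Genes are listed here because the test of the change in genotype effect between 12 and 2 months passed in limma, and the value in brackets is the effect at 12 months minus that at 2 months on the log2 scale. They were taken from the 15 largest rises, the 15 largest falls and the fixed set around Shc1, and other named genes passed as well, Cxcl2 (3.95) and Fosb (3.62) among them. The 2-month libraries that chose the rises and falls also enter this test. Part of a smaller effect at 12 months can therefore come from that choice. The effect was higher at 12 months for these mast cell and muscle genes, lower in KO at 2 months: Mcpt4 (6.24), Myh3 (5.01), Cpa3 (4.75), Actn2 (3.85), Cma1 (3.69), Actc1 (3.41), Fcer1a (3.31), Myh1 (3.23), Tpsb2 (2.97). Of the genes that rose at 2 months, the effect was lower at 12 months for Arg1 (-5.18), Chi3l3 (-3.67), Col14a1 (-2.63), Ifi202b (-1.36), Mfap4 (-1.11), Col11a1 (-1.09), Postn (-0.85), and higher for Epha3 (1.06), Frem1 (0.67), Bche (0.53). Of the genes that fell, Ivl (0.89), Crct1 (0.77) were less far below WT at 12 months and Cd5l (-0.88) was further below. Among genes given whatever their result, Myc (0.97), Shc2 (0.61), Numb (-0.40) differed between the ages without being called at 2 months. The causes of these differences were not tested.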

How the results depend on the processing

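The count of higher genes, 259 on the deposited scale, was 426 with TMM over all 12 libraries, 479 with TMM over the 6 libraries of 2 months, 523 with quantile scaling, 428 with DESeq2 size factors, 474 in edgeR and 529 in DESeq2. It was 533 on the common scale without WT replicate 1 and 765 with a loess correction for GC content, both chosen after seeing the data. The count of lower genes, 1986, was 1032, 961, 799, 989, 940 and 1198 under the first 6 of these settings, 1396 on the common scale without WT replicate 1 and 1254 with the GC correction. Leaving out each library in turn on the deposited scale gave 173 to 295 higher and 1233 to 2738 lower genes. The counts of lower genes without KO replicate 1 (1233) and without KO replicate 3 (1297) moved by over 1.5 times. Same-numbered WT and KO libraries correlated in their deviations at 0.188, -0.161 and 0.227, so the numbers do not pair them, and a replicate block gave 302 higher and 2288 lower genes. The number of genes whose effect differed between ages (8051) stayed within 1.5 times under each alternative run, and Shc1 was called under all 20. The difference between ages for Hist1h4m was -3.56 in DESeq2 (adjusted p = 0.0275) against 0.49 in limma (adjusted p = 0.306). All its KO libraries of 12 months were at 0 CPM, and the cause of the disagreement was not tested. Of 141 named genes called on the deposited scale, 125 were called in every setting run, and 6 were lost with TMM over all 12 libraries. Many of these genes were named because they were called on both scales, which sets part of that share in advance.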

Other observations

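Of the signalling lists not described above, those of Notch, Wnt, TGF-beta and BMP, and the EGF family held calls in both directions, and none of their medians lay beyond -0.22 log2 on the deposited scale. Of 24 measured Notch genes 1 rose and 4 fell, with the receptor Notch2 from 308 ± 13.1 to 224 ± 10.2 CPM. Of 35 Wnt genes 1 rose and 5 fell. The ligand Wnt7b rose from 7.12 ± 1.22 to 10.5 ± 0.262 CPM, and the Wnt amplifier Rspo3 fell from 26.9 ± 1.84 to 16 ± 0.564. Of 38 TGF-beta and BMP genes 3 rose and 7 fell. The BMP antagonist Grem1 fell from 123 ± 8.5 to 84 ± 6.17 CPM. Of 27 EGF family genes 3 rose and 1 fell, and the ligands Ereg and Hbegf rose by 0.61 and 0.47 log2. Of 28 immediate-early genes Fos and Fosb rose, Fos from 29.2 ± 2.74 to 57.9 ± 7.88 CPM, and 0 fell on both scales. The call of Fosb was lost without WT replicate 2 or 3 or KO replicate 2 (adjusted p = 0.0602 to 0.0709).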
